A study of Mus musculus with 3 samples.

Results

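Type I interferon-stimulated genes in lung endothelial cells (ECs) were followed across 3 single-cell libraries of mouse lung. The set was a list of 39 genes named by symbol, of which 37 were found among the 32285 genes of the count matrices; Mx1 and Mx2 were not analysed here. No measured value entered the choice of a gene, but the list was drawn up with earlier results of these data known. ECs were taken as barcodes with 1000 to 5000 genes, under 20% mitochondrial UMIs (unique molecular identifiers, 1 for each captured mRNA molecule) and at least 2 UMIs of Pecam1 and Cdh5 together. These came to 11231 (control), 10583 (6 h) and 9278 (30 h).

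All animals were wild-type C57BL/6 mice. The control mice received PBS by the tail vein and were taken after 6 h, and the other mice received 200000 B16-F10 cells, a mouse skin melanoma line, and were taken after 6 h or 30 h. The sort from digested lungs took Pecam1+ Ptprc- cells, pooled over 2 mice per treatment by the sample descriptions, while the methods text gives 3 for the experiment with these groups, and the sources were not reconciled. Each group was 1 library, melanoma cells were also sorted into the 6 h library, and the PBS library used here was taken at 6 h, so that time after injection and melanoma cells cannot be told apart in the 30 h comparison.

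Type I interferons (interferon alpha and beta) bind a receptor built from Ifnar1 and Ifnar2, whose kinases Jak1 and Tyk2 phosphorylate STAT proteins. Irf9 and Stat2 are parts of the complex ISGF3, which binds the interferon-stimulated response element (ISRE) in the promoters of antiviral genes. Many of the induced proteins sense viral RNA or block its translation, and others, such as Usp18, damp the signal.

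Promoters of the genes are shown first, since the ISRE is the sequence that the family is known for. RefSeq promoter windows of 300 bases (250 before to 50 after the transcription start, GRCm38.p6) were given for 29 of the 39 genes, in 33 windows. The ISRE core, GAAA, any NN pair of bases and GAAA again, or TTTC, NN and TTTC on the other strand, read on both strands and with overlapping matches counted, was present for 13 of the 29 genes (44.8%), against 3.99% of the 27025 genes in the promoter table. The core of the gamma-activated site, TTCNNNGAA, was found for 6 of the 29 (20.7%), against 9.55% of all genes. The stretches below run from 200 to 21 bases before the start on the strand of the gene, with the ISRE core in capitals. Isg15, Ifit1, Ifit3, Ifit3b, Rsad2 and Bst2 are shown because they carried the core and moved in different ways between the libraries, and Herc6 because it was among the most changed genes and its window held no match.
Isg15 (chr4:156200839-156201018, minus strand): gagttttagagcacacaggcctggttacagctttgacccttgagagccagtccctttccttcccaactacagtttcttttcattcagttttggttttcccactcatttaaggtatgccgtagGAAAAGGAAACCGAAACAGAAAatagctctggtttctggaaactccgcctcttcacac
Ifit1 (chr19:34640689-34640868, plus strand): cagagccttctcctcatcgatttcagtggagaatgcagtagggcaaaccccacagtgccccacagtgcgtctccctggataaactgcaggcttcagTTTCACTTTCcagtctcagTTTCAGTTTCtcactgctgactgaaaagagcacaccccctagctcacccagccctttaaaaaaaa
Ifit3 (chr19:34583329-34583508, plus strand): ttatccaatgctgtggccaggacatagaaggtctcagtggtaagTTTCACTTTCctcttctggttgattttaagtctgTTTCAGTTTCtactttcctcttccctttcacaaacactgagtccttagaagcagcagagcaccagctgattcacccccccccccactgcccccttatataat
Ifit3b (chr19:34607757-34607936, plus strand): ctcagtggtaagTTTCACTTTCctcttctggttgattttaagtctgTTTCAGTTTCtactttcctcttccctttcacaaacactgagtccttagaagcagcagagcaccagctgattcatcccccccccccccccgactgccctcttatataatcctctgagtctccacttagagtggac
Rsad2 (chr12:26456473-26456652, minus strand): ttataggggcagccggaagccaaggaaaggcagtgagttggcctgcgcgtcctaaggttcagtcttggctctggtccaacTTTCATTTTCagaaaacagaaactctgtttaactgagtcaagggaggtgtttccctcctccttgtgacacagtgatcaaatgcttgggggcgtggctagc
Bst2 (chr8:71537493-71537672, minus strand): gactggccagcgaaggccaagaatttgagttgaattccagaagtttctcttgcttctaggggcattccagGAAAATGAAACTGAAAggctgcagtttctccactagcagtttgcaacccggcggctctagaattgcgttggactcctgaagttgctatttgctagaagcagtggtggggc
Herc6 (chr6:57580792-57580971, plus strand): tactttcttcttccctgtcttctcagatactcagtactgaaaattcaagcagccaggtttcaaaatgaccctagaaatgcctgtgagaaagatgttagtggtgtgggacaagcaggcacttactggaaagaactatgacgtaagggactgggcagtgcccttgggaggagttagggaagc

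Isg15 carried 3 overlapping cores, at 78, 72 and 66 bases before the start. Ifit1, Ifit3 and Ifit3b each carried 2 separate cores on the opposite strand, and the promoters of Ifit3 and Ifit3b were identical at 259 of 260 aligned bases. Bst2 carried 2 overlapping cores at 130 and 124 bases before the start. The 12 tested genes with a core had a median log2 ratio of 0.09 at 6 h and -0.18 at 30 h against control, and the 14 tested genes with a window but no core had 0.13 and -0.12. A match is only a stretch of letters, and the genes with and without it covered overlapping ranges of change.

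Levels are given as CPM, the UMIs of a gene scaled to a total of 1e+06 UMIs over all ECs of a library, with exact Poisson 95% intervals. The kit reads the 3′ end of each mRNA, so CPM counts molecules and was not divided by gene length. Intervals cover counting error only: with 1 library per group there was no estimate of variation between animals and no test of the conditions was possible. A gene was called changed when its difference on the log2(CPM + 1) scale exceeded 0.32 in size and its mean was at least 5 CPM, a rule without a p-value. The level was reached by 34 of the 37 genes, since Oas3 held 6, 5 and 5 UMIs in all, Epsti1 reached 0.693, 0.595 and 1.47 CPM, and Oasl1 stood at 5.09, 5.44 and 3.19 CPM in control, 6 h and 30 h.

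The libraries differed in ways that bear on these values. Summed UMIs over all barcodes ran from 124085451 to 140601123 and the median EC held 7782, 8033 and 8675.5 UMIs in control, 6 h and 30 h. All 6 endothelial markers were present, at 6509, 6402 and 7788 CPM in sum. The 10 immediate-early and heat shock markers, which rise when tissue is digested and are also induced in living tissue, summed to 6881, 9606 and 4917 CPM, and none was at 0. All 10 immune markers were detected, at 97.8, 146 and 84.8 CPM, led by Lyz2 at 75.1, 86.8 and 42.6 CPM. Of these markers only Lyz2 was lower at 30 h than in control, and every other one was higher. Ptprc went from 3.16 to 6.53 CPM, Cd52 from 3.599 to 8.49 CPM and Laptm5 from 5.68 to 5.98 CPM. S100a8 was at 2.003, 16.03 and 4.85 CPM and S100a9 at 3.02, 18.11 and 4.57 CPM in control, 6 h and 30 h. All 5 platelet markers were detected, at 146, 178 and 146 CPM. Red cell markers were at 3243, 2115 and 827 CPM and epithelial markers at 819, 598 and 366 CPM, while rRNA-like gene models took 0.596%, 0.757% and 2.44% of EC UMIs. The part of these shifts in the 30 h values was not tested. Barcodes holding 4 or more of 8 melanoma markers among ECs numbered 0, 7 and 0. Free RNA was put at 5.17%, 5.31% and 7.32% of EC UMIs, and the pairs of libraries shared 22 to 38 EC barcodes.

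**Figure D1:**
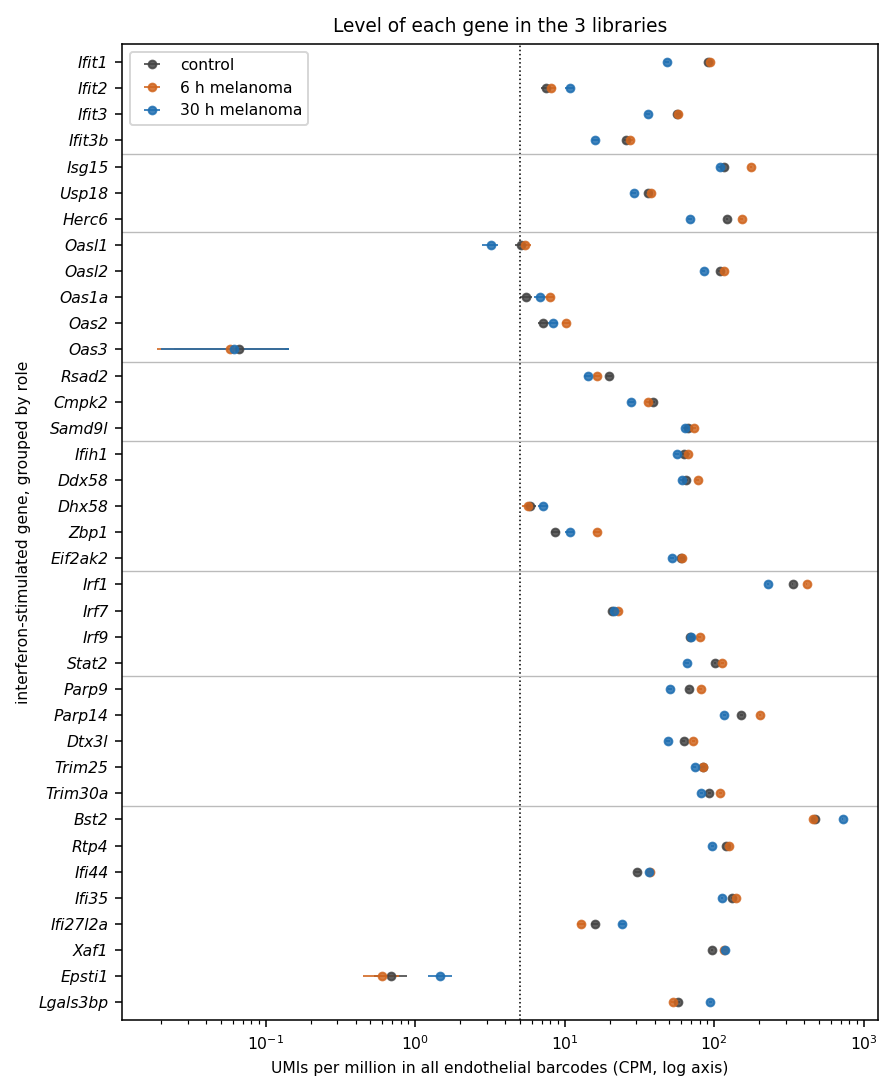
CPM (log axis) of each of the 37 genes in all ECs of the control (grey), 6 h (orange) and 30 h (blue) libraries, with exact Poisson 95% intervals, horizontal lines between role groups and a dotted line at 5 CPM. Bst2 and Irf1 sit highest and Oas3 lowest, and 6 h points tend to lie right of control while 30 h points of Ifit1, Ifit3, Ifit3b and Herc6 lie left.

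Together the 37 genes made up 2815 CPM of EC UMIs in control (95% interval 2804 to 2826), 3174 CPM at 6 h (3162 to 3186) and 2683 CPM at 30 h (2672 to 2694). The sum was thus highest at 6 h and lowest at 30 h, but the genes did not move as one block. At 6 h, 28 of the 34 tested genes lay above control, with a median log2 ratio of 0.11 against -0.01 over all 10175 genes tested. Past the limit, 5 of the 34 were higher and 0 were lower, where 6.56% of all tested genes were higher and 5.88% were lower. At 30 h, against the same control library, 22 of the 34 lay below control and the median log2 ratio was -0.18, against -0.07 over all genes. Here 4 were higher and 12 lower, where 12.2% and 19.1% of all tested genes were higher and lower. Between the melanoma libraries, 17 genes were lower and 4 higher at 30 h than at 6 h, against 16.6% and 12.7% of all genes, with a median of -0.32. The counting interval of every called gene excluded a ratio of 1.

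**Figure D2:**
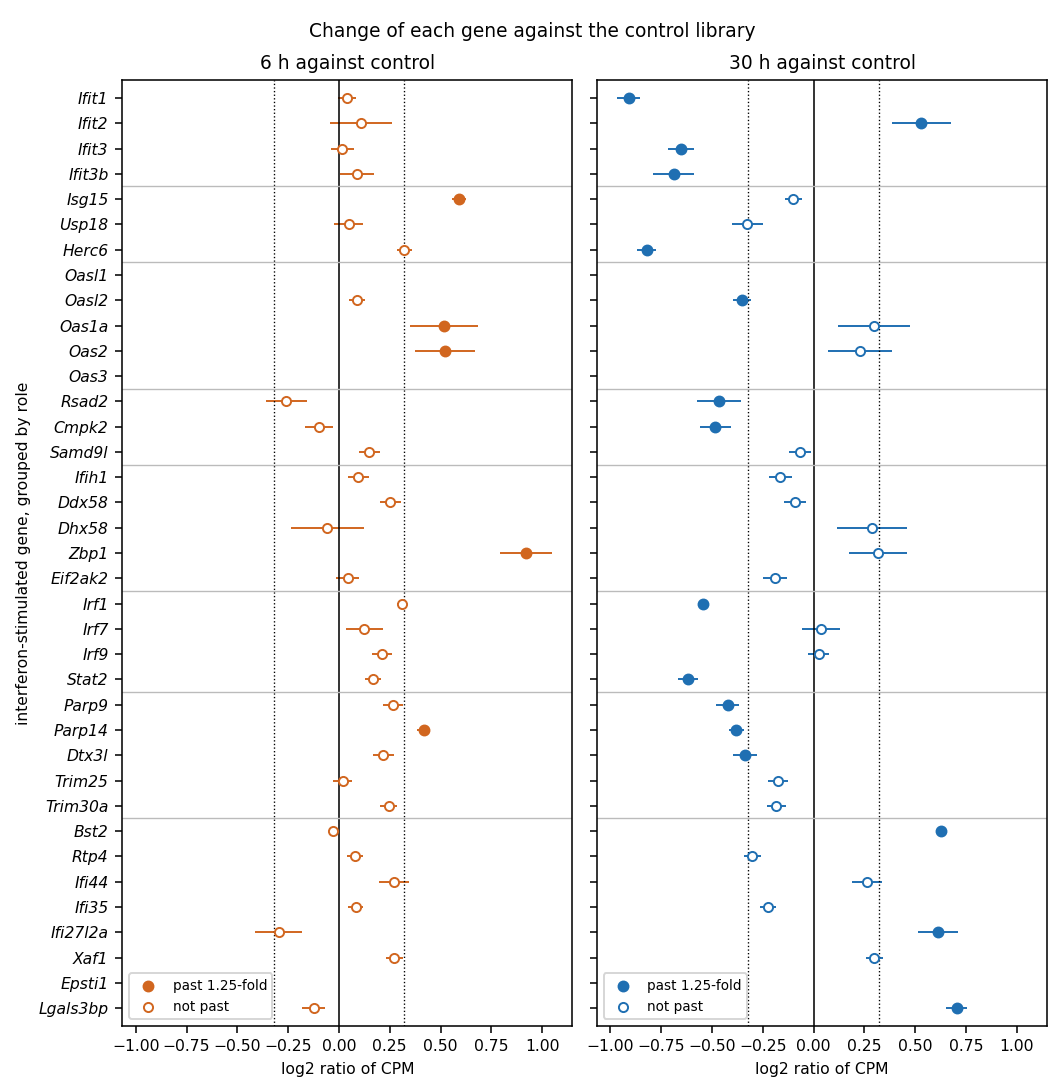
log2 ratio of CPM with exact 95% counting intervals for the 34 genes with at least 5 CPM on average, at 6 h (left) and 30 h (right) against the same control library; filled points passed the limit for a call (dotted lines). The 5 filled points at 6 h all lie right of 0, and at 30 h 12 lie left and 4 lie right.

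In the ISG15 system, Isg15 passed the limit at 6 h and Herc6 at 30 h. Isg15, a ubiquitin-like protein that is attached to other proteins and also secreted, was at 117 CPM in control, 176 CPM at 6 h and 109 CPM at 30 h. The 6 h library stood above both others, by a CPM ratio of 1.505 (1.47 to 1.54) over control, whereas the 30 h ratio was 0.933 (0.907 to 0.960). In droplets of 10 to 100 UMIs, taken as empty, the gene was at 111 CPM in control and 179 CPM at 6 h, a ratio of 1.61 (1.23 to 2.13). Herc6, the ligase that attaches Isg15 in the mouse, was at 122, 152 and 69.0 CPM. Its 6 h ratio of 1.2498 (1.22 to 1.28) lay just under the limit for a call, and its 30 h ratio of 0.566 (0.548 to 0.585) was among the 4 lowest. Usp18, which removes Isg15 and dampens the receptor, was at 36.3, 37.5 and 28.9 CPM and passed the limit in neither comparison with control.

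IFIT proteins bind foreign RNA and block its translation. Their 4 genes lie side by side on chromosome 19. Ifit1 was at 91.3 CPM in control, 94.0 CPM at 6 h and 48.6 CPM at 30 h. The ratio at 30 h, 0.532 (0.512 to 0.552), was the lowest of all 34 genes, while the 6 h ratio was 1.03 (0.998 to 1.06). Ifit3 stood at 56.8, 57.4 and 36.1 CPM, and its near-copy Ifit3b at 25.8, 27.4 and 15.99 CPM. Both were close between control and 6 h and lower at 30 h, with ratios of 0.636 (0.608 to 0.666) and 0.620 (0.579 to 0.664). The annotated last 300 bases of the pair, where the kit reads, were identical at 17 of 20 aligned positions, the rest not aligning. Ifit2 went the other way, at 7.47, 8.06 and 10.8 CPM, with a 30 h ratio of 1.44 (1.30 to 1.60).

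OAS enzymes make a short RNA messenger when they meet double-stranded RNA, which switches on a ribonuclease. Oas1a, at 5.53, 7.91 and 6.79 CPM, and Oas2, at 7.11, 10.2 and 8.33 CPM, were both higher at 6 h, by ratios of 1.43 (1.27 to 1.61) and 1.44 (1.30 to 1.59). The OAS-like gene Oasl2 was at 109, 116 and 85.0 CPM and was called lower at 30 h, with a ratio of 0.782 (0.758 to 0.807), a call lost under 5 of 15 alternatives. Oas1a and Oas2 lay above control at 30 h too, short of the limit.

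Rsad2 (viperin), which makes a chain-terminating nucleotide, and its genomic neighbour Cmpk2, a mitochondrial nucleotide kinase, were among the 4 genes with the lowest ratios at 6 h. Rsad2 was at 19.7 CPM in control, 16.4 CPM at 6 h and 14.2 CPM at 30 h, with ratios of 0.835 (0.778 to 0.896) and 0.724 (0.671 to 0.779). Cmpk2 was at 38.7, 36.2 and 27.7 CPM, with ratios of 0.935 (0.891 to 0.981) and 0.715 (0.678 to 0.754). Both were called lower only at 30 h. Samd9l, a restriction factor that limits translation, was at 66.5, 73.8 and 63.4 CPM and passed no limit.

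Among nucleic acid sensors, Zbp1 had the largest ratio of all genes at 6 h. This sensor of left-handed RNA and DNA, which can start necroptosis, was at 8.65 CPM in control, 16.4 CPM at 6 h and 10.8 CPM at 30 h, and the 6 h ratio was 1.89 (1.73 to 2.07). The 30 h value lay between the other 2, with a ratio of 1.245 (1.13 to 1.37) that did not pass the limit on the log2(CPM + 1) scale. The cytosolic RNA sensors Ddx58 (RIG-I), at 65.0, 77.4 and 60.97 CPM, and Ifih1 (MDA5), at 62.8, 67.1 and 56.1 CPM, were each highest at 6 h and lowest at 30 h without a call. Dhx58 (LGP2), their regulator, was at 5.89, 5.66 and 7.18 CPM, and the kinase Eif2ak2 (PKR) at 59.5, 61.3 and 52.1 CPM. Of these sensors Zbp1 alone passed the limit, and at 6 h.

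Of the 4 transcription factors, Irf1 and Stat2 were lower at 30 h and none passed the limit at 6 h. Irf1, which is induced by interferon gamma and other cytokines as well, was the second most abundant gene at 335, 415 and 229.7 CPM. Its 6 h ratio was 1.24 (1.22 to 1.26), just under the limit, and the 30 h ratio was 0.686 (0.673 to 0.699). The sum of the stress markers had the same order across libraries. In the ECs at or below the control's median share of stress marker UMIs, the log2 ratio of Irf1 at 30 h was -0.15 in place of -0.54. Stat2 was at 101, 113 and 65.9 CPM, a 30 h ratio of 0.652 (0.630 to 0.674). Irf9, the DNA-binding part of ISGF3, was at 69.0, 80.1 and 70.2 CPM, and its gene overlaps Rnf31 on the same strand, so some reads could belong to either. Irf7, the master regulator of interferon alpha genes, was at 20.7, 22.6 and 21.3 CPM.

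Among PARP and ubiquitin ligase genes, Parp14 passed the limit at 6 h and Parp14, Parp9 and Dtx3l at 30 h. Parp14, an ADP-ribosyltransferase, was at 152, 203 and 117 CPM and was called in both directions, with ratios of 1.34 (1.31 to 1.37) and 0.768 (0.748 to 0.788). Parp9 was at 67.4, 81.1 and 50.3 CPM and its partner ligase Dtx3l at 62.3, 72.5 and 49.2 CPM. These neighbours on chromosome 16 overlap on opposite strands and were called lower at 30 h, with ratios of 0.746 (0.717 to 0.776) and 0.790 (0.759 to 0.823), where Dtx3l lost its call under 6 of 15 alternatives. Trim25, the ligase that activates RIG-I, was at 83.6, 84.7 and 74.0 CPM, with control and 6 h within counting error. Trim30a was at 92.8, 109.9 and 81.7 CPM, and its annotated 3′ end matched that of Trim30d at 256 of 300 bases.

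Genes higher at 30 h came mostly from the remaining, mixed group. Bst2 (tetherin), which holds virus particles at the cell surface, was the most abundant gene at 469 CPM in control, 459 CPM at 6 h and 725 CPM at 30 h. The ratio at 30 h was 1.55 (1.53 to 1.57) and its 6 h ratio was 0.980 (0.967 to 0.993). Lgals3bp, a secreted galectin-binding glycoprotein, was at 57.6, 52.8 and 93.8 CPM, a 30 h ratio of 1.63 (1.57 to 1.69) and a 6 h ratio of 0.917 (0.882 to 0.955). Ifi27l2a, of the Ifi27 family of small interferon-induced proteins, was at 15.8, 12.9 and 24.2 CPM, with ratios of 0.814 (0.752 to 0.881) at 6 h and 1.53 (1.43 to 1.64) at 30 h. For these 3 genes 30 h stood above both other libraries, and 6 h lay somewhat below control, least so for Bst2. Empty droplets were also higher at 30 h, with ratios of 1.26 (1.15 to 1.39) for Bst2, 1.76 (1.27 to 2.48) for Lgals3bp and 2.34 (1.62 to 3.48) for Ifi27l2a. Ifit1 and Herc6, lower in ECs at 30 h, were lower there as well, at 0.508 (0.355 to 0.733) and 0.484 (0.328 to 0.721). With the estimated free RNA subtracted the 3 higher genes kept their call, at log2 ratios of 0.64, 0.69 and 0.37.

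Xaf1, a pro-apoptotic partner of XIAP, was at 96.7, 117 and 119 CPM, with ratios of 1.21 (1.17 to 1.24) and 1.23 (1.19 to 1.27), and Ifi44 was at 30.6, 37.0 and 36.7 CPM. Both were above control at each time and below the limit. Rtp4 was at 119.7, 126 and 97.1 CPM and Ifi35 at 132, 139.8 and 113 CPM, again highest at 6 h and lowest at 30 h.

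The balance of higher and lower genes at 30 h shifted under some alternatives of the processing. Centred on the median gene, whose log2 ratio was -0.07, the genes higher and lower numbered 8 and 9 in place of 4 and 12, where 16.4% and 13.2% of all genes were higher and lower. In ECs at or below the control's median share of stress marker UMIs, a subset with 50.0%, 43.7% and 64.6% of the control, 6 h and 30 h ECs, they numbered 9 and 7, where 13.1% and 21.3% of all genes were. Ifit1, Ifit3, Ifit3b, Herc6, Stat2, Cmpk2 and Parp9 kept their lower call, and Bst2, Lgals3bp, Ifi27l2a and Ifit2 their higher call, in both settings. In the ECs above that stress median, 4 genes were higher and 13 lower, and the share of all genes there was not taken.

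EC classes were set by markers: general capillary (gCap), aerocyte capillary (aCap), artery, vein and lymphatic ECs each needed 4 of 6 markers. A gCap cell could hold at most 2 markers of each other class. Cells of the other classes could not reach 4 markers of a further class apart from gCap, whose markers were not limited in them. They held 6856, 1643, 151, 663 and 65 control cells, and 16.5% to 17.8% of ECs fell in no class. Each class had the highest summed level of its own markers among its class marker lists in control, except that artery cells held 3459 CPM of gCap markers beside 3046 CPM of artery markers. In control, the 37 genes summed to 3135 CPM in vein, 2949 in gCap, 2621 in artery, 2486 in aCap and 1549 in lymphatic ECs. Aerocytes, the large thin cells of gas exchange, lay below gCap for 29 of 34 genes in control, 30 at 6 h and 25 at 30 h, with medians of -0.36, -0.39 and -0.24 on the log2 scale. Over all 10175 genes the aCap median was -0.01 at 30 h and closer to 0 in the other libraries. Lymphatic ECs lay below gCap for 30, 30 and 27 of the 34 genes in control, 6 h and 30 h, and artery ECs for 21, 27 and 21. The medians were -1.03, -1.09 and -0.73 in lymphatic ECs, against -0.060, -0.070 and -0.056 over all genes. In artery ECs they were -0.12, -0.39 and -0.09, against -0.025, -0.026 and -0.029. The share of all genes below gCap was not taken for any class.

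Vein ECs held the highest level of Ifit1, Ifit3, Ifit3b, Herc6, Ddx58, Zbp1 and Irf1 in control, above the next class by more than counting error. In the other libraries this order held beyond counting error for Zbp1 and Irf1 at both times and for Ifit1, Ifit3 and Ifit3b at 6 h. Herc6 and Ddx58 were level between vein and gCap within counting error at both times. In control, vein lay above gCap for 17 of 34 genes and below it for 17, and it lay above for 22 at 6 h and 19 at 30 h. The medians were 0.02, 0.04 and 0.02 in control, 6 h and 30 h, against -0.075, -0.085 and -0.061 over all genes. Above the next class by more than counting error, the highest class in control was gCap for Oasl2, Cmpk2, Trim25 and Rtp4. It was artery for Ifih1, Oas2 and Lgals3bp, and aCap for Bst2 and Ifi35. Classes below the next one were not compared, so those with few UMIs may still overlap the highest. Artery ECs, for example, held Oasl2 at 106 CPM from 144 UMIs, against 119 CPM in gCap. Irf1 was at 520.5 CPM in vein, 348 in gCap, 278 in aCap, 184 in artery and 56.5 in lymphatic ECs. Ifi27l2a was a lymphatic and venous gene here, at 139 CPM in lymphatic and 73.8 in vein ECs against 6.71 to 6.72 CPM in aCap and gCap, with artery at 28.8 CPM. Bst2, by contrast, lay between 399 and 496 CPM in all 5 classes, with aCap at 496 and gCap at 478 CPM. In aCap, Ifi35 was at 172, 178 and 145 CPM in control, 6 h and 30 h. In gCap, the next class, Ifi35 was at 125, 136 and 107 CPM. Some neighbouring classes did not differ beyond counting error, such as vein and artery for Isg15. Isg15 was at 138 CPM in vein and 136 CPM in artery ECs.

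In gCap, 6 of 35 genes were higher and 0 lower at 6 h, against 7.38% and 6.13% of genes, and 5 were higher and 15 lower at 30 h, against 12.4% and 19.1%. The 6 were Isg15, Zbp1, Oas2, Parp14, Herc6 and Irf1. In aCap, 2 of 30 were higher (Isg15 and Parp14) and 2 lower (Rsad2 and Ifi27l2a) at 6 h, against 5.38% and 5.23% of genes. At 30 h 6 were higher and 4 lower in aCap, against 14.7% and 22.9%. Bst2, Lgals3bp, Ifi27l2a and Ifit2 were among the higher genes in both capillary classes at 30 h, and Ifit1, Ifit3, Herc6 and Stat2 among the lower. Ifi27l2a was at 6.71 CPM in control and 12.3 CPM at 30 h in aCap, below its 37.6 and 88.0 CPM in empty droplets. The part of free RNA in its capillary ratios was not tested. Isg15 went from 127 to 193 CPM at 6 h in gCap and from 78.1 to 108.5 CPM in aCap, and was at 113 and 83.3 CPM at 30 h. Ifit1 was at 103, 107 and 55.4 CPM in gCap and 52.3, 49.9 and 33.0 CPM in aCap. The difference between classes in these ratios was not tested.

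In vein ECs, of 34 genes 12 were higher and 1 lower at 6 h, against 10.2% and 12.6% of genes, and 5 were higher and 11 lower at 30 h, against 14.2% and 21.5%. Rsad2 was at 11.9 CPM in control, 34.6 CPM at 6 h and 9.74 CPM at 30 h in vein ECs, from 81, 169 and 53 UMIs. The 6 h ratio was 2.90 (2.21 to 3.83), whereas over all ECs the gene stood below control at 6 h, and the interval takes UMIs as independent, which UMIs held by few cells are not. Zbp1 was at 14.1, 28.4 and 22.1 CPM in vein ECs and Oas2 at 11.0, 19.6 and 9.38 CPM. Irf1, at 520.5, 592 and 299 CPM, and Ifit1, at 115, 121 and 54.2 CPM, followed the order of all ECs. Artery ECs had a median log2 ratio of -0.19 at 6 h, but it was 0.066 with a gate of 3 markers, and lymphatic ECs numbered 52 to 65 per library.

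**Figure D3:**
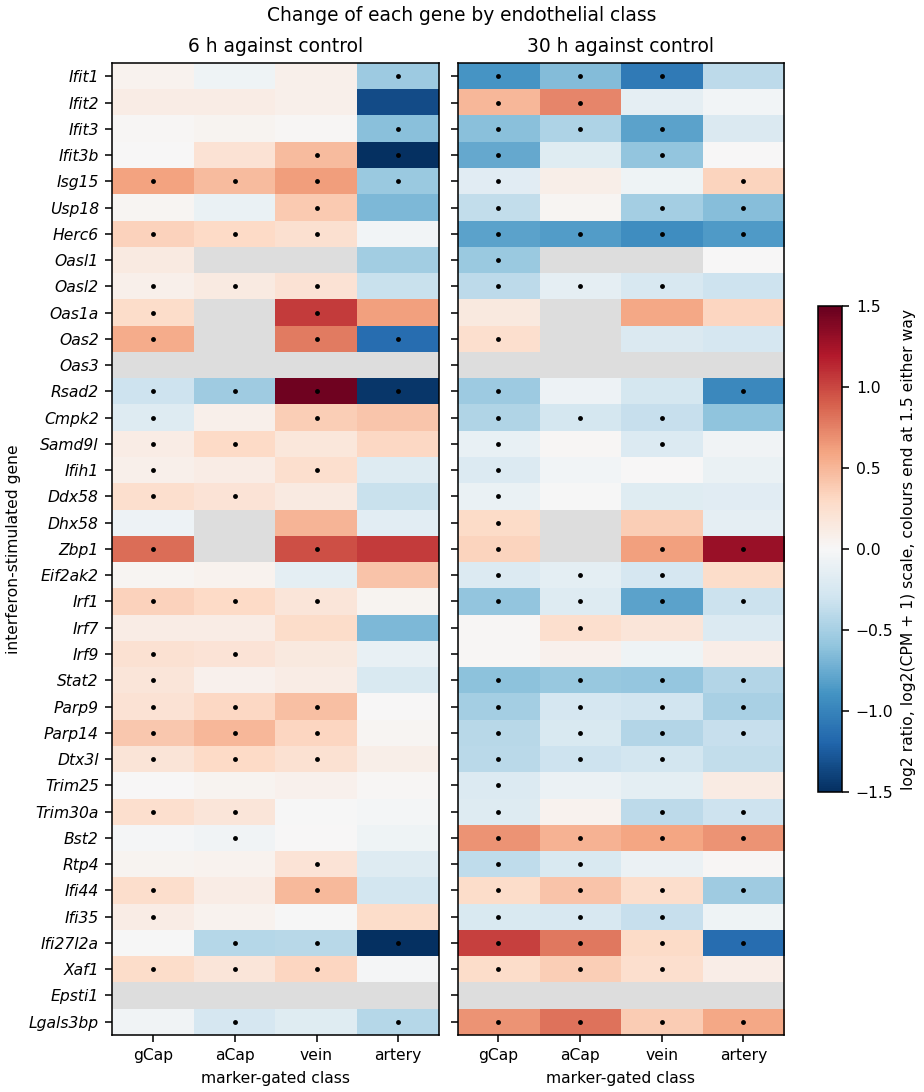
log2 ratio on the log2(CPM + 1) scale (colour, red higher and blue lower than control) of each gene in gCap, aCap, vein and artery ECs at 6 h (left) and 30 h (right); dots mark counting intervals that exclude 1 and grey cells were under 5 CPM on average. Rsad2 is red in vein at 6 h and blue in aCap and artery, while Herc6 is blue and Bst2 red in all 4 classes at 30 h.

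UMIs of the 37 genes were uneven over cells. After each EC was thinned to 2000 UMIs, which left out 195, 197 and 111 shallower cells, an EC held 5.64 of these UMIs on average in control, 6.34 at 6 h and 5.30 at 30 h, with medians of 4, 5 and 4. The richest 5% of ECs held 18.6%, 18.6% and 16.6% of them, where cells of equal level would give 9.78%, 9.49% and 9.95% by Poisson counting. Above the control's 99th percentile of 25 UMIs lay 102 of 11036 control ECs, 0.924% (exact binomial 95% interval 0.754 to 1.12%), 142 of 10386 at 6 h, 1.37% (1.15 to 1.61%), and 35 of 9167 at 30 h, 0.382% (0.266 to 0.531%). Without thinning the 30 h share was 0.614%. Cells of one library are not replicates, so these intervals cover counting only.

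**Figure D4:**
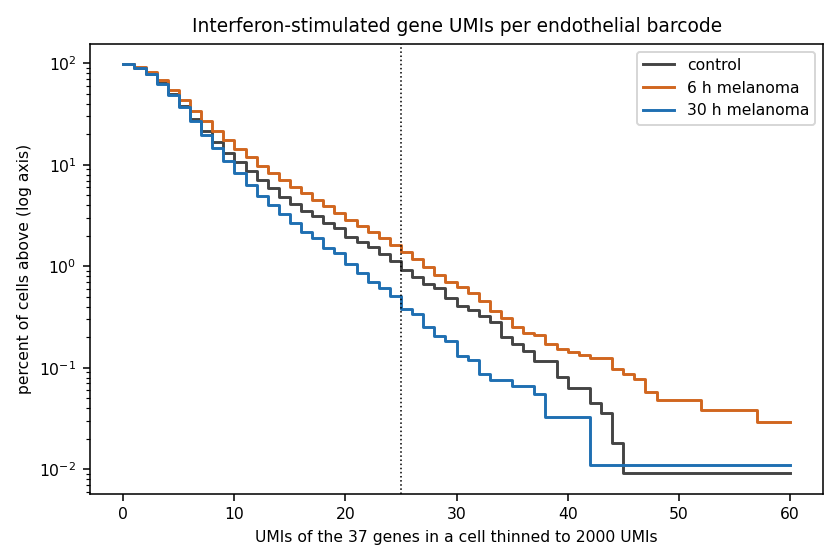
Percent of ECs (log axis) that hold more than a given number of UMIs of the 37 genes after thinning to 2000 UMIs per cell, for the control (grey), 6 h (orange) and 30 h (blue) libraries; the dotted line is the control's 99th percentile of 25 UMIs. At that line 1.37% of ECs remain at 6 h, 0.924% in control and 0.382% at 30 h.

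Genes of the list were high in shared cells. ECs were split by their thinned UMIs of 5 genes, Ifit1, Ifit2, Ifit3, Ifit3b and Isg15, and the other 32 genes were read in them. At least 3 such UMIs were found in 6.65%, 8.35% and 4.54% of ECs in control, 6 h and 30 h. The other 32 genes gave 11.9, 12.5 and 11.2 UMIs per cell there, and 4.19, 4.49 and 4.24 in ECs with 0. The share of high cells was thus largest at 6 h and smallest at 30 h, and the other genes were more abundant there in each library. Total UMIs before thinning were close, with medians of 7759 in high and 7829 in low control ECs. High ECs were less often aCap, at 6.13%, 6.23% and 11.1% against 16.1%, 14.3% and 19.04% of low ECs, and more often gCap, at 68.0%, 71.5% and 61.5% against 60.7%, 62.5% and 56.1%. They held more stress marker UMIs per cell, 16.4, 22.01 and 9.62 against 12.7, 17.5 and 8.98, whose part in the split was not tested. Immune marker UMIs were at 0.195, 0.130 and 0.0673 per cell against 0.167, 0.310 and 0.156.

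Of the 31 other genes with a ratio (Oas3 had too few UMIs), 30, 30 and 29 were higher in the high cells beyond counting error in control, 6 h and 30 h, with median CPM ratios of 3.41, 3.00 and 3.12. The share of all genes that differ between these cells is not given here, so the counts have no background beside them. The intervals take UMIs pooled over cells as independent. Rsad2 had ratios of 15.6, 21.4 and 21.8, and Oasl1 of 15.2, 18.0 and 27.7. Ifi44 had 10.1, 9.48 and 7.96, Usp18 with 7.87, 8.48 and 9.35, and Irf7 with 6.50, 9.78 and 6.53. Oas1a had 13.2, 8.61 and 5.69. Cmpk2 had 6.30, 6.68 and 7.197, and Oasl2 7.15, 6.77 and 5.95. These 8 genes were over 5-fold higher in the high cells of each library. Irf1 differed least among the genes above 5 CPM in control and 6 h, at 1.33 and 1.40 and at 1.32 at 30 h, and Bst2 at 1.60, 1.82 and 1.65. The 2 most abundant genes of the list were therefore among those least tied to the high cells. In the ECs outside the high group the median log2 ratio of the 29 tested other genes was 0.16 at 6 h and -0.16 at 30 h, against 0.15 and -0.18 in all thinned ECs. At 30 h against 6 h it was -0.26, against -0.34. ECs outside the high group were set by UMIs of Isg15 and the IFIT genes, whose levels themselves differed between the libraries.

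**Figure D5:**
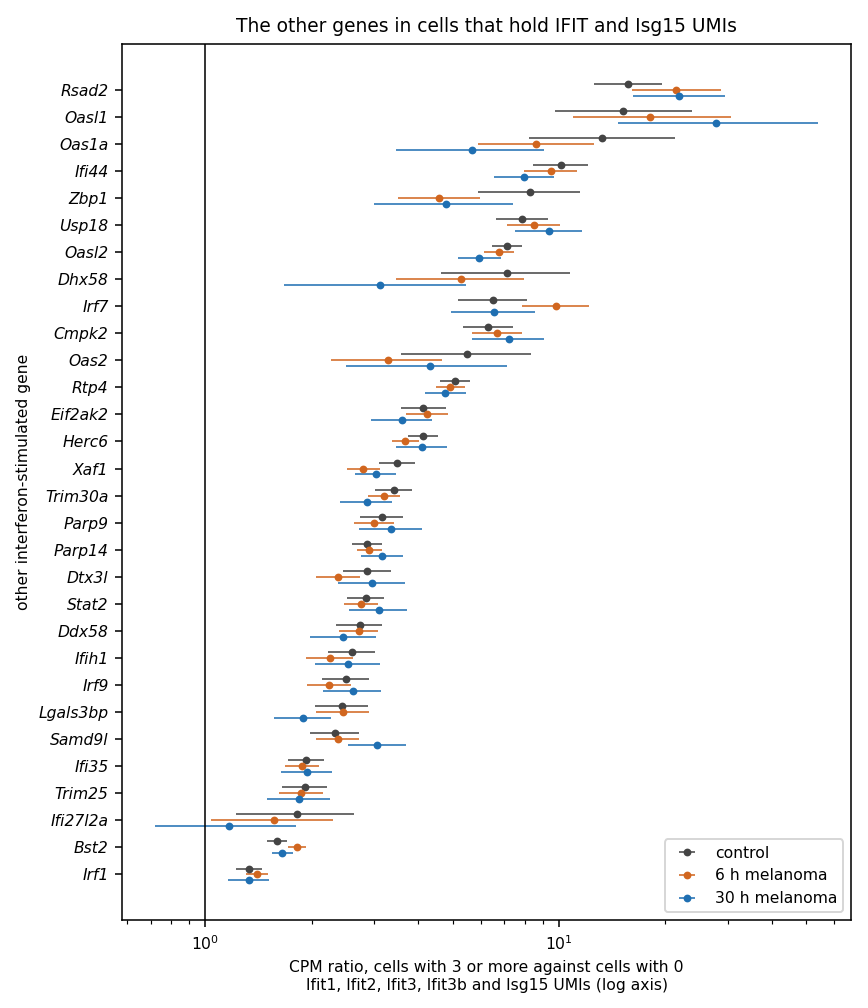
CPM ratio (log axis, exact 95% counting intervals) of each other gene between ECs with 3 or more and ECs with 0 thinned UMIs of Ifit1, Ifit2, Ifit3, Ifit3b and Isg15, in control (grey), 6 h (orange) and 30 h (blue). Rsad2 and Oasl1 lie above 10-fold in all 3 libraries and Irf1 lies between 1.32 and 1.40.

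Upstream genes of the pathway were read from a list of 44, of which 42 were found and 25 passed the level filter. No UMI of Ifnb1, Ifna1, Ifna2, Ifna4, Ifna5, Ifnl2 or Ifnl3 was seen in the ECs of any library, where a count of 0 allows up to 3 UMIs. The receptor chains were present and nearly level, with Ifnar1 at 58.8, 56.1 and 54.3 CPM and Ifnar2 at 194, 188 and 181 CPM. At 6 h 7 of the 25 were higher and 0 lower, against 6.56% and 5.88% of all tested genes. Among the higher genes were the kinase Jak1 (265, 331 and 248 CPM), Stat3 (221, 309.5 and 145 CPM), the feedback inhibitors Socs1 (14.5, 23.6 and 10.5 CPM) and Socs3 (546, 837 and 385 CPM), the adaptor Myd88 (16.7, 22.4 and 13.2 CPM) and the phosphatase Ptpn2 (37.5, 50.7 and 35.3 CPM). Jak1 lay just past the limit, at a 6 h ratio of 1.252 (1.23 to 1.27). At 30 h 0 of the 25 were higher and 8 lower, against 12.2% and 19.1% of all tested genes. The lower ones were Jak2, Stat3, Socs1, Socs3, Tbk1, Cgas, Samhd1 and Pias1. Socs1 had the largest 6 h ratio, 1.63 (1.52 to 1.74), and Stat3 the lowest 30 h ratio, 0.655 (0.640 to 0.670), and both respond to many cytokines. The sum of the stress markers, too, was highest at 6 h and lowest at 30 h, and their part in these values was not tested.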

How the data were processed

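The authors deposited 1 matrix of UMI counts per library from 10x 3′ sequencing of sorted lung cells. The submitters' processing notes name Cell Ranger 7.2.0, Seurat 4.4.0 and the build mm10. The study's methods name an earlier Cell Ranger version, the kit version was not settled, and whether intronic reads were counted is not given in the sources used here. Counts were read with Python 3.11.15, NumPy 2.4.6, SciPy 1.17.1, pandas 2.3.3 and scanpy 1.11.5, and drawn with matplotlib 3.10.9. UMIs were summed over ECs or classes and scaled to CPM. Sums have exact Poisson intervals, ratios exact conditional binomial intervals and shares Clopper-Pearson intervals, all at 95%. Calls used log2(CPM + 1), a limit of 0.32 and a mean of 5 CPM. The steps were tested on simulated counts with known changes. No doublets were left out in the values reported, and leaving out called doublets was an alternative.

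Every gene of the list was accounted for. Full values were given for the 6 highest and 4 lowest ratios of each comparison with control, and pathway genes were named when called, except 1 that is not reported here. The members and lists were chosen with earlier results of these data known. The class limit of 4 of 6 markers was set after cell numbers were seen, and 2 alternatives, the split by stress markers and the removal of barcodes with RNA of other cell types, were chosen after seeing the data. Of 32285 gene IDs 32235 matched GENCODE M21 (GRCm38), and promoters came from RefSeq GRCm38.p6.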

Additional observations from a re-analysis of the deposited data

Results flagged for a closer look

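Ratios of CPM to control that passed the limit for a call in opposite directions in different EC classes, each with a counting interval that excluded 1, are given here. The differences between classes were not tested, and artery and lymphatic ECs were few, at 126 to 216 and 52 to 65 cells per library. At 6 h, Ifit1 was at 0.681 in artery and 2.00 in lymphatic ECs, and Ifit3b at 0.245 in artery and 1.40 in vein ECs. Isg15 was at 1.52 in gCap, 1.39 in aCap and 1.55 in vein, but 0.677 in artery ECs. With artery cells defined by 3 markers its ratio was 1.05 (0.883 to 1.26). Oas2 was at 1.53 in gCap and 1.78 in vein against 0.423 in artery ECs. Rsad2 was at 2.90 in vein ECs, against 0.667 in aCap, 0.340 in artery and 0.160 in lymphatic ECs. The lymphatic value came from 2 UMIs at 6 h against 16 in control, and UMIs held by few cells are not independent. With 3 markers Rsad2 was at 2.57 in vein, 0.639 in aCap and 0.506 in artery ECs. Ifi27l2a was at 0.708 in aCap, 0.211 in artery and 0.748 in vein ECs against 1.59 in lymphatic ECs. The artery values came from few UMIs at 6 h and in control, 5 and 24 for Ifit3b, 9 and 25 for Oas2 and 7 and 39 for Ifi27l2a. Artery ratios with 3 markers are not given here for these genes or for Ifit1.

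At 30 h, Ifi44 was at 1.37 in aCap and 0.684 in artery ECs, where 3 markers gave 1.02. Ifi27l2a was at 2.19 in gCap, 1.83 in aCap and 1.66 in lymphatic ECs against 0.432 in artery ECs. The part of free RNA in the gCap and aCap values was not tested.

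Barcodes outside the ECs also differed from control. Genes with more than 3 UMIs in control, at least 20 UMIs in both libraries together and a counting interval wholly above the limit for a call are given, with examples of lower genes. In empty droplets at 30 h, Ifi27l2a had a ratio of 2.34 and Lgals3bp of 1.76, while Ifit1 was at 0.508, Herc6 at 0.484, Rsad2 at 0.477, Stat2 at 0.625 and Parp14 at 0.708. In the few Ptprc barcodes (22, 40 and 35 in control, 6 h and 30 h), the summed list was 2.23 times control at 6 h and 1.35 (1.18 to 1.55) at 30 h. Ratios there were 3.52 for Irf1, 3.62 for Trim30a, 3.90 for Bst2, 3.71 for Rtp4, 7.03 for Ifi27l2a and 2.08 for Epsti1. Trim25 went the other way, from 96 UMIs in control to 62 at 6 h and 125 at 30 h, with ratios of 0.413 (0.295 to 0.574) and 0.538 (0.409 to 0.709). At 30 h they were 2.56 for Bst2 and 3.69 for Ifi27l2a. Immune cell types were not separated in these barcodes, and the makeup of the 3 sets was not tested.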

How the results depend on the processing

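No paired analysis was possible because each group has 1 library, and for the same reason no replicate could be left out. Of the values for whole comparisons under all alternatives, 157 stayed within their limits, 18 moved and 3 reversed. Of the single-gene values 296 kept direction and call and 19 kept direction without the call, among Oasl2, Dtx3l, Rsad2, Parp14, Irf1, Oas1a, Oas2 and Ifit2. Genes higher at 6 h numbered 5, and 7 in ECs at or below the stress median (median log2 ratio 0.20 in place of 0.11), 7 after centring, 3 with a pseudocount of 10 CPM, 2 with a mean of 20 CPM and 2 at 1.5-fold. Genes lower at 6 h numbered 0, and 2 with barcodes of 300 genes or more and no upper limit, 1 with a gate of 5 UMIs, 1 without barcodes holding RNA of other cell types and 2 in ECs above the stress median. Genes higher at 30 h numbered 4, and 9 at or below the stress median, 8 after centring, 2 with a mean of 20 CPM and 2 at 1.5-fold. Genes lower at 30 h numbered 12, and 7 at or below the stress median and 5 at 1.5-fold. At 30 h against 6 h, the 4 higher became 2 with a mean of 20 CPM and the 17 lower became 9 at 1.5-fold. The artery medians of -0.19 and -0.18 became 0.066 at 6 h and 0.030 at 30 h with 3 markers, and the lymphatic 30 h median of 0.02 became -0.084 when classes were gated on thinned cells. Shares of high cells above the control's 95th percentile were 7.09% at 6 h and 3.24% at 30 h, and the 30 h share was 0.614% without thinning. Lymphatic ECs under 3 markers fell below 50 cells and gave no value. Under the alternatives, the share of all genes past the limit was taken only at 30 h against control, after centring and at or below the stress median. The other counts under alternatives have no background beside them and are not results about these genes. Stricter limits hold fewer genes by construction, and the cause of the other changes was not tested.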
